A study of Mus musculus with 27 samples.

Results

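The interferon response genes described here are 43 genes that are known to be induced by interferons, 31 placed in a type I class and 12 in an interferon-gamma class. They were followed in the liver RNA of 27 male C57BL/6J mice, with 1 Affymetrix array per mouse. A member was measured where a transcript cluster of the array carried its symbol alone, and the cluster with the highest mean was taken for a gene with several. This gave 39 of the 43 members among 18820 genes in all, with 28 of the type I class and 11 of the interferon-gamma class. All 39 passed the filter on low and on nearly constant values that left 13993 genes. Ifi44 had no cluster listed, and Parp9, Dtx3l and Igtp had only clusters with several symbols, so these 4 were not analysed here.

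All mice were 28 months old when the liver was taken, and the diets had started at 9 weeks of age. The 8 C mice ate the AIN-93W control diet. The 5 CR mice were on 30% calorie restriction, and the 7 MF mice ate the medium-fat diet, in which fat gives 25% of the energy. The 7 CR-MF mice had been calorie-restricted until they were moved, at 24 months, to the medium-fat diet without restriction. All mice were fasted before sacrifice, with a gavage partway through the fast. The paper left mice gavaged with a PPARα test substance out of its transcriptomic analysis, which leaves those given the carboxymethyl cellulose solvent alone. Only CR mice are described as being given a reduced portion just before the fast, so the restriction and this last meal cannot be told apart in CR. The authors' Robust Multiarray Average (RMA) values are on a log2 scale, where a difference of 1 is a 2-fold difference. Of 10 hepatocyte markers 9 had a value, all of them above 10.8 in all mice, with albumin (Alb) between 13.55 and 13.73. Alb, Ttr, Apoa1 and Apob varied too little to pass the filter. Of the 5 tested, Tat and Cps1 were lower in MF than in CR, by log2 differences of -0.46 and -0.29 (limma adjusted p 0.0150 and 0.0287). In that comparison 5.42% of all genes had a limma adjusted p below 0.05. RNA of whole liver was measured, in which fewer cells of a type and less RNA per cell cannot be told apart.

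Interferons are cytokines released on viral infection or, in the case of interferon-gamma, mainly by T cells and natural killer (NK) cells. Type I interferons (alpha and beta) act through the receptor Ifnar1/Ifnar2 and a complex with Stat2 and Irf9 that binds interferon-stimulated response elements (ISRE) in promoters. Interferon-gamma acts through the receptor Ifngr1/Ifngr2 and on gamma-activated sites (GAS) in promoters. The classes overlap, since many genes answer to both: 12 of the measured members, Irf1, Irf9, Stat2, Psmb8, Psmb9, Tap1, Gbp3, Cxcl10, Bst2, Ifi35, Parp14 and Zbp1, are known to answer to both.

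The promoters of the members were read as windows from 250 bases before to 50 bases after the start of the gene (RefSeq, GRCm38.p6), which the table held for 34 of the 43 members. The ISRE core searched was GAAANNGAAA, on both strands. It was found in 16 of the 34 genes (47.1%), against 3.99% of all 27025 genes with such windows, with 10 of 23 type I members and 6 of 11 interferon-gamma members. The GAS searched was TTCNNNGAA, which reads the same on both strands, and it was found in 8 of 34 members (23.5%) and 9.55% of all genes. The 2 motifs overlapped each other in 1 member window and in 24 of the 32851 windows of all genes. Of the members whose results are given in full below, Mx2 and Iigp1 had no window. Ifit1, Irgm1 and Gbp7 held the ISRE core, while it was not found in the windows of Herc6, Samd9l and Xaf1. These windows are shown 5′ to 3′ on the strand of the gene, together with that of Isg15, whose matches lie over one another, with the ISRE core in capitals. They lie at chr19:34640639-34640938 (plus strand, Ifit1), chr11:48871371-48871670 (minus strand, Irgm1), chr3:142530086-142530385 (plus strand, Gbp7) and chr4:156200769-156201068 (minus strand, Isg15).
Ifit1: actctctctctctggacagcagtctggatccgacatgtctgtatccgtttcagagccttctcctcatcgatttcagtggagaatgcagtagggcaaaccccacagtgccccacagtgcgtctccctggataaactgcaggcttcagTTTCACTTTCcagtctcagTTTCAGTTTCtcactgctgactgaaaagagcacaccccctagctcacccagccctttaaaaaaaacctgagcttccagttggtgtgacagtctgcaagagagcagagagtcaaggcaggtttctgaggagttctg
Irgm1: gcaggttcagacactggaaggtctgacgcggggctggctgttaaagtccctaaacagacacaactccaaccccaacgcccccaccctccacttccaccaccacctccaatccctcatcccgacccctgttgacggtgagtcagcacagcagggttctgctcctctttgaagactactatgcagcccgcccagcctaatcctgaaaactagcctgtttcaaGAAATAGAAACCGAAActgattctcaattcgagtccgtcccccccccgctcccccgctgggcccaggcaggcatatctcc
Gbp7: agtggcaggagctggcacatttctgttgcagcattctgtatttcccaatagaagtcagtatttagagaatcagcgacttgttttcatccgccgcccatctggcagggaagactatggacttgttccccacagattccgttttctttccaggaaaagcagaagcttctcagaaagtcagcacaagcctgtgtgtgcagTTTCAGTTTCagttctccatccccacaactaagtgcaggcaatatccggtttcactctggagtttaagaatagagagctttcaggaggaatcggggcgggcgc
Isg15: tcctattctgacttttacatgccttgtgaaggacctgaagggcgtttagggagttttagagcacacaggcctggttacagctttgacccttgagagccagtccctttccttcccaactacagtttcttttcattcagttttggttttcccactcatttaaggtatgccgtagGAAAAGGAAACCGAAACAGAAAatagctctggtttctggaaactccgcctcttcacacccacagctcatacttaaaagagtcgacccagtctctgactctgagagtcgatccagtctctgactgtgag

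The type I member Ifit1 held 2 separate cores on the opposite strand, and the interferon-gamma members Irgm1 and Gbp7 held ISRE cores as well. The window of Gbp7 also held GAS matches, with capitals left to the ISRE core. Irf1, a transcription factor that is itself induced through a GAS, held the GAS letters and no ISRE core in its window at chr11:53769764-53770063 (plus strand). In this sequence the capitals mark the GAS.
Irf1: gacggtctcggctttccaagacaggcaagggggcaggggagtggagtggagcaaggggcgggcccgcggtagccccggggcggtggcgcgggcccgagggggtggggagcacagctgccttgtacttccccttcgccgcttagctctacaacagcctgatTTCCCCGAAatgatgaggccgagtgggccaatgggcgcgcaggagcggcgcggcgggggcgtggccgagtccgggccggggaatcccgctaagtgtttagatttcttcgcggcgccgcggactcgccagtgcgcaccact

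Across the 4 diet groups most members had their lowest mean in CR and their highest in CR-MF. The mean of CR was the lowest of the 4 for 35 of the 39 members, and that of CR-MF was the highest for 29, with C highest for the other 10. For all 39 members the difference of CR-MF from CR was above 0 (for Bst2 by 0.00 at this rounding), with a median log2 difference of 0.67, and 37 were lower in CR than in C, by a median of -0.53, while the median over all genes tested was 0.00 and 0.02. These comparisons share the CR mice. In the fit over all genes, 7 of 39 members differed among the 4 groups at an adjusted p below 0.05, against 3.62% of all genes.

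**Figure D1:**
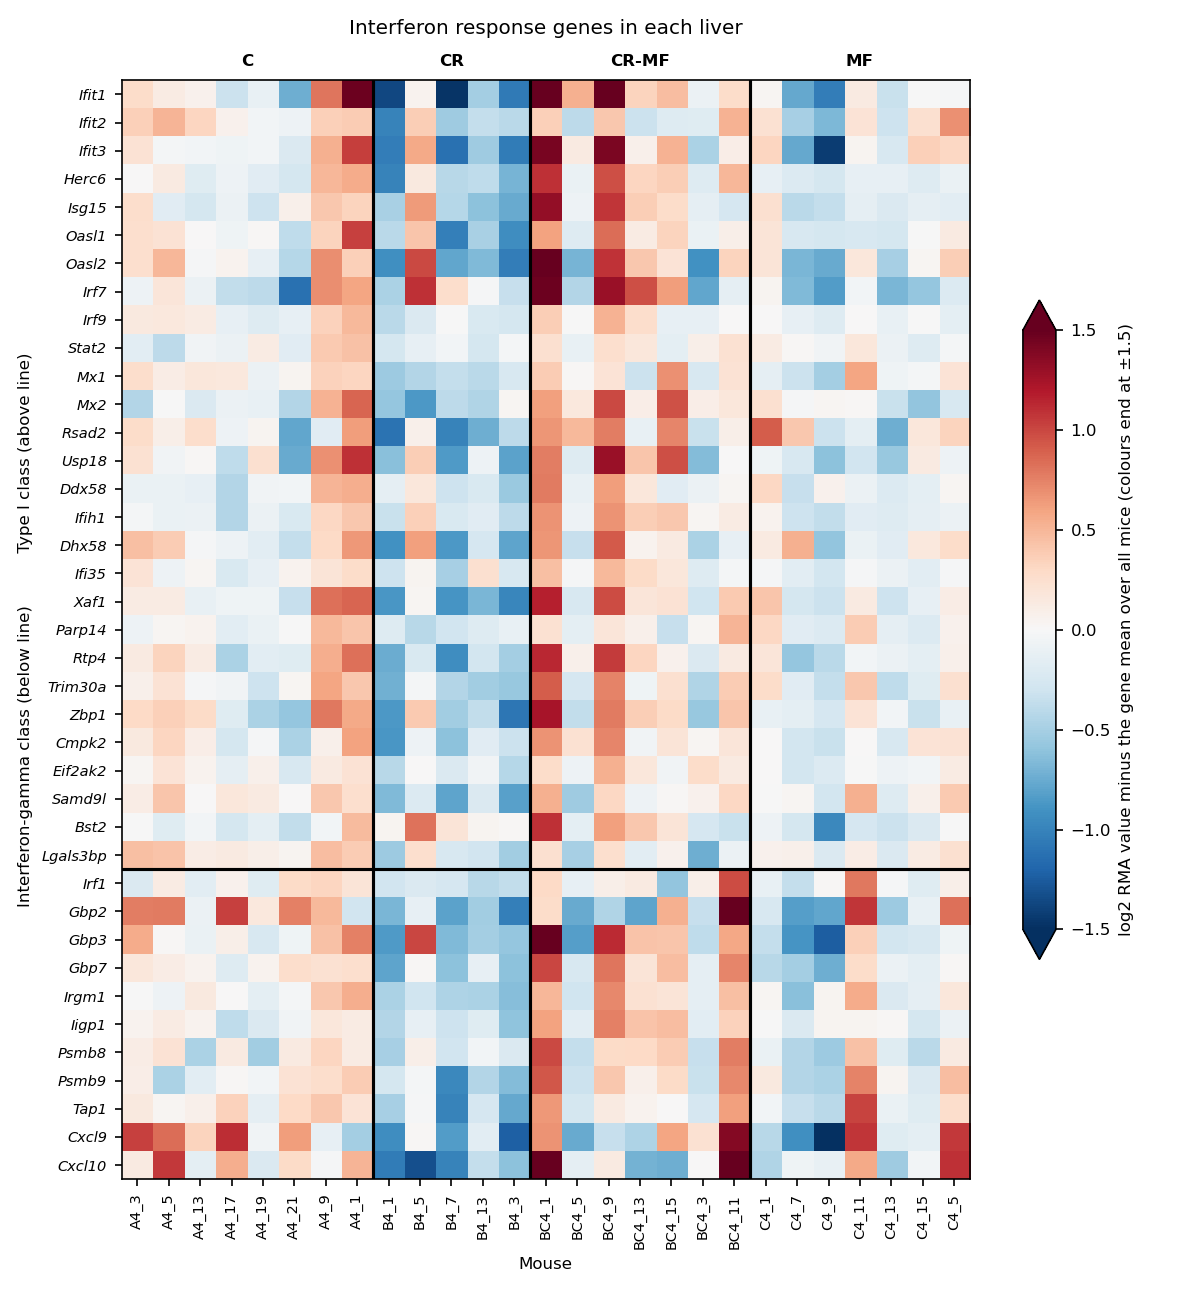
Log2 RMA value of each measured member (rows, type I class above the line and interferon-gamma class below) in each of the 27 mice (columns, by diet group), centred on the gene's mean in the 27 mice, with red above and blue below the mean and colours ending at 1.5. The CR columns other than B4_5 are blue over most rows, and among the CR-MF columns BC4_1 and BC4_9 are the reddest in the type I class.

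CR-MF differs from CR both in the end of restriction and in the medium-fat diet, and the comparison cannot tell these apart. In CR-MF against CR, 7 of 39 members rose and none fell, against 0.600% of all genes called in either direction. They were Ifit1, Herc6, Mx2 and Xaf1 of the type I class and Gbp7, Irgm1 and Iigp1 of the interferon-gamma class. At an unadjusted p below 0.05, 33 of 39 members were higher (5.40% of all genes) and 0 were lower (6.90% of all genes). The values of Mx2, Rtp4 and Cmpk2 did not overlap between the groups, against 0.493% of all genes without overlap in this direction. How many members passed depended on single mice. With 1 mouse left out it was 0 without B4_1, B4_3 or BC4_9 and 1 without B4_7 or BC4_1. It was 2 without BC4_13 or BC4_11, and 3 without BC4_15, A4_3, A4_13, A4_19 or C4_13. It was 4 without A4_17 or C4_15, 8 without A4_21, 9 without A4_1 and 10 without BC4_5. It was 11 without BC4_3 and 15 without B4_5. Without any other mouse it lay between 5 and 7. The median difference of the type I members nevertheless lay between 0.55 and 0.78 and that of the interferon-gamma members between 0.61 and 0.80 in these fits.

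Ifit1, which binds viral RNA that lacks the host's cap methylation, had the largest difference between CR-MF and CR of the members. Its log2 values were 6.22, 6.52, 7.64, 6.11 and 7.07 in the CR mice B4_1, B4_3, B4_5, B4_7 and B4_13. They were 7.50 at the lowest, 8.04 at the median and 9.28 at the highest in CR-MF, 6.85, 7.68 and 9.05 in C, and 6.54, 7.57 and 7.72 in MF. The CR mouse B4_5 lay inside the range of CR-MF, the other CR mice below it. The log2 difference of CR-MF from CR was 1.55 (SE 0.34, 2.93-fold, limma adjusted p 0.0305; transcript cluster 10462623).

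Herc6, the ligase that joins the ubiquitin-like protein Isg15 to its targets in mice, stood at 7.32, 7.62, 8.47, 7.90 and 7.94 in the same CR mice. CR-MF ran from 8.12 over a median of 8.69 to 9.42, C from 8.06 over 8.29 to 8.87, and the 7 MF mice lay within 8.05 and 8.22 around a median of 8.19. The MF mice were thus closest together, and B4_5 was again the CR mouse that reached the other groups. CR-MF exceeded CR by 0.89 (SE 0.20, 1.85-fold, limma adjusted p 0.0305; transcript cluster 10538590).

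Mx2, a gene of the dynamin-like GTPase family, was at 5.38, 5.98, 5.09, 5.56 and 5.50 in CR and between 6.05 and 6.94 in CR-MF, with a median of 6.13. In C it ran from 5.51 over 5.86 to 6.83 and in MF from 5.36 over 5.94 to 6.19. Every CR-MF mouse was above every CR mouse, and here B4_5 was the lowest of CR. The difference was 0.89 (SE 0.21, 1.86-fold, limma adjusted p 0.0474; transcript cluster 10437224).

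Xaf1, a partner of the inhibitor of apoptosis Xiap, was at 6.31, 6.20, 7.21, 6.30 and 6.50 in CR. In CR-MF it ran from 6.88 over 7.40 to 8.35, in C from 6.84 over 7.21 to 8.06, and in MF from 6.86 over 7.06 to 7.60. All CR mice but B4_5 were below every mouse of the other groups. CR-MF exceeded CR by 1.02 (SE 0.24, 2.03-fold, limma adjusted p 0.0467; transcript cluster 10378068).

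Of the interferon-gamma members, Gbp7, a guanylate-binding protein that acts at vacuoles holding pathogens, was at 7.54, 7.72, 8.35, 7.72 and 8.21 in CR. CR-MF ran from 8.09 over 8.79 to 9.33, C from 8.14 over 8.47 to 8.59, and MF from 7.60 over 8.19 to 8.61. B4_5 and B4_13 lay within the other groups and the other 3 CR mice below C. The difference of CR-MF from CR was 0.83 (SE 0.19, 1.77-fold, limma adjusted p 0.0434; transcript cluster 10496569), and that from MF was 0.63 (SE 0.17, limma adjusted p 0.0625).

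Irgm1, an immunity-related GTPase that takes part in autophagy, was at 8.42, 8.25, 8.59, 8.43 and 8.42 in CR, and so close together in all CR mice, B4_5 included. CR-MF ran from 8.59 over 9.12 to 9.61, C from 8.75 over 8.89 to 9.44, and MF from 8.27 over 8.92 to 9.45. No CR mouse reached the lowest C mouse, and the highest CR value equalled the lowest of CR-MF at this rounding. The difference of CR-MF from CR was 0.71 (SE 0.17, 1.63-fold, limma adjusted p 0.0446; transcript cluster 10385500).

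Iigp1, a GTPase of the same family that attacks the vacuoles of intracellular parasites, was at 9.78, 9.62, 10.10, 9.91 and 10.04 in CR. CR-MF ran from 10.06 over 10.65 to 10.98, C from 9.84 over 10.28 to 10.39, and MF from 9.96 over 10.22 to 10.26. All CR-MF mice but BC4_3 and BC4_5 were above every mouse of the other groups. The difference of CR-MF from CR was 0.66 (SE 0.13, 1.57-fold, limma adjusted p 0.0217; transcript cluster 10455961).

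**Figure D2:**
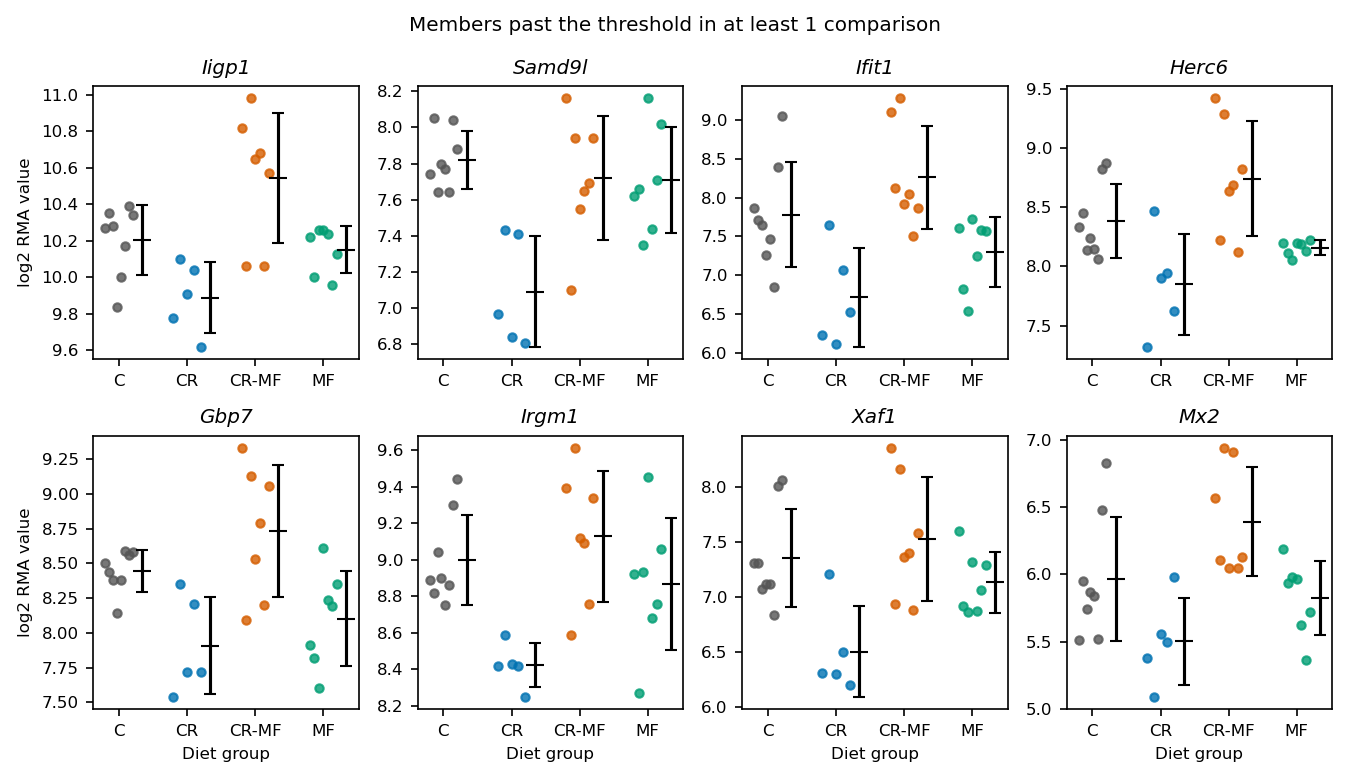
Log2 RMA value of the 8 members past the adjusted p of 0.05 in at least 1 comparison, with 1 point per mouse by diet group and, beside the points, the mean (tick) and the SD (bars). The CR points lie lowest in each panel on average, and the CR-MF points spread widest for Iigp1, Gbp7 and Xaf1.

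By role, the members differed between CR-MF and CR as follows. Over all genes, 5.40% were higher at an unadjusted p below 0.05 and 0.600% were called in either direction. All 5 sensors of viral nucleic acid (Ifih1, Ddx58, Dhx58, Zbp1 and Eif2ak2) were higher at an unadjusted p below 0.05, with a median log2 difference of 0.47, and none was called. Of the 15 antiviral effectors, 3 were called and 12 had an unadjusted p below 0.05, with a median of 0.73. Of the 5 members of the role of Isg15, ubiquitin and ADP-ribosylation (Isg15, Usp18, Herc6, Trim30a and Parp14), Herc6 was called. All 5 had an unadjusted p below 0.05, with a median of 0.70. Among the 5 guanylate-binding and immunity-related GTPases, 3 were called and 4 had an unadjusted p below 0.05, with a median of 0.71. Psmb8 and Psmb9, subunits of the immunoproteasome, and Tap1, the peptide transporter, differed by 0.48, 0.73 and 0.64, none of them called. Cxcl9 and Cxcl10, chemokines that draw T cells, differed by 0.81 and 1.11 with adjusted p of 0.442 and 0.157 in limma. The transcription factors had the lowest median of the roles (0.34), with 0.24 for Stat2, 0.32 for Irf7, 0.36 for Irf9 and 0.43 for Irf1.

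In the comparison of CR with C, lifelong restriction against the control diet, Samd9l was the 1 member called among 39, against 1.57% of all genes in either direction. Samd9l, an interferon-induced protein that restrains viral translation and cell growth, was at 6.97, 6.81, 7.43, 6.84 and 7.41 in the CR mice B4_1, B4_3, B4_5, B4_7 and B4_13. C ran from 7.64 over a median of 7.79 to 8.05, CR-MF from 7.10 over 7.69 to 8.16 and MF from 7.35 over 7.66 to 8.16. All CR mice were below all C mice. Samd9l fell by 0.73 in CR against C (SE 0.15, 1.65-fold lower, limma adjusted p 0.0195; transcript cluster 10542911) and was higher in MF than in CR by 0.62 (SE 0.16, limma adjusted p 0.0225). Its difference of 0.63 between CR-MF and CR had an adjusted p of 0.0599 in limma.

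At an unadjusted p below 0.05, 27 of 39 members were lower in CR than in C (10.5% of all genes) and 0 were higher (9.27% of all genes). Mx1, Samd9l, Irgm1 and Cxcl10 were lower in every CR mouse than in any C mouse, against 1.37% of all genes. The lowest adjusted p after that of Samd9l were 0.0515 for Mx1 (-0.56), 0.0561 for Lgals3bp (-0.53) and 0.0588 for Xaf1 (-0.85) in limma. The number called rose to 8 without B4_5 and to 8 without BC4_11, was 4 without C4_11, 3 without BC4_3 and 2 without A4_1, A4_19, A4_21, C4_7, C4_9, BC4_1, BC4_5, BC4_13 or BC4_15, and was 0 without B4_1 or B4_3.

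The group means of Irf7 and Bst2 did not follow those of the other members between CR and C. Irf7, the factor that amplifies type I interferon production, was at 8.93, 9.06, 10.50, 9.67 and 9.39 in the same CR mice, with medians of 9.39 in CR, 9.32 in C, 10.03 in CR-MF and 8.82 in MF. Bst2, a tether that holds budding virus on the cell, was at 8.91, 8.89, 9.68, 9.06 and 8.91 in CR and at 8.86 at most in MF, so that all CR mice lay above all MF mice. For Bst2 the log2 difference of MF from CR was -0.52 (SE 0.20, limma adjusted p 0.119), and for Irf7 it was -0.53 (SE 0.35, adjusted p 0.362). B4_5 was the highest CR mouse for both, and for Irf7 B4_1 and B4_3 lay below the C median, B4_7 and B4_13 above it. The means of these members were not lower in CR than in C, with differences of 0.29 for Bst2 and 0.17 for Irf7 (limma adjusted p 0.421 and 0.818). Ifi27, an interferon-induced gene that is no member, had the same order, fell by 0.72 in MF against CR (limma adjusted p 0.0404) and was higher in CR-MF than in MF by 0.83 (adjusted p 0.0208).

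Between MF and CR, 1 of 39 members was called (Samd9l, higher in MF), against 5.42% of all genes. At an unadjusted p below 0.05, 10 members were higher in MF (12.5% of all genes) and Bst2 was lower (11.2% of all genes). The number called was 0 without B4_1, B4_3 or B4_7 and 2 without B4_5 or C4_13. None of the 39 members was called between MF and C, where no gene was called at all (0%), and none had an unadjusted p below 0.05, against 2.67% of all genes higher and 1.30% lower. The median difference of the members from C was -0.20.

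Between CR-MF and MF, groups that ate the same diet at the end, limma called no member, against 1.44% of all genes, while 38 of 39 members were higher in CR-MF. At an unadjusted p below 0.05, 18 were higher (6.76% of all genes) and 0 lower (7.99% of all genes). The lowest adjusted p were 0.0570 for Ifih1, the sensor of long double-stranded RNA (0.49), 0.0625 for Gbp7 (0.63) and 0.0957 for Herc6 (0.59). Lgals3bp, a secreted glycoprotein, was the member that was not higher, with a difference of -0.16. The number called was 4 without BC4_3, 3 without BC4_5 and 1 without A4_1, A4_17, B4_5, C4_11 or BC4_11. By the plate codes in the array names, 37 members were higher in CR-MF on the plate with 5 mice of each group. The type I median there was 0.52 and the interferon-gamma median 0.31. On the other plates, with 1 mouse of each group, 13 and 26 members were higher. The type I medians on those were -0.11 and 0.01, and the interferon-gamma medians 0.01 and 0.44.

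Between CR-MF and C no member was called by limma either, against 0.300% of all genes. The median difference was 0.16, with 29 members higher and 10 lower. At an unadjusted p below 0.05, Ifih1, Mx2, Herc6 and Iigp1 were higher (5.52% of all genes) and Lgals3bp was lower (5.90% of all genes). The plate codes in the array names split this comparison. On the plate with most mice, 5 CR-MF mice against 6 C mice, the median difference of the type I members was 0.46, while for the single CR-MF and C mouse on each of the other plates it was -0.56 and -0.46. For the interferon-gamma members it was 0.28 on the first plate and -0.54 and 0.48 on the others, so the classes went opposite ways on the last. Against CR, the medians of CR-MF were above 0 within all plates, with type I medians of 0.67, 0.17 and 0.60 and interferon-gamma medians of 0.68, 0.13 and 1.35. All 7 CR-MF arrays had well codes of one row that held no other group, so this row and the diet switch cannot be told apart.

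**Figure D3:**
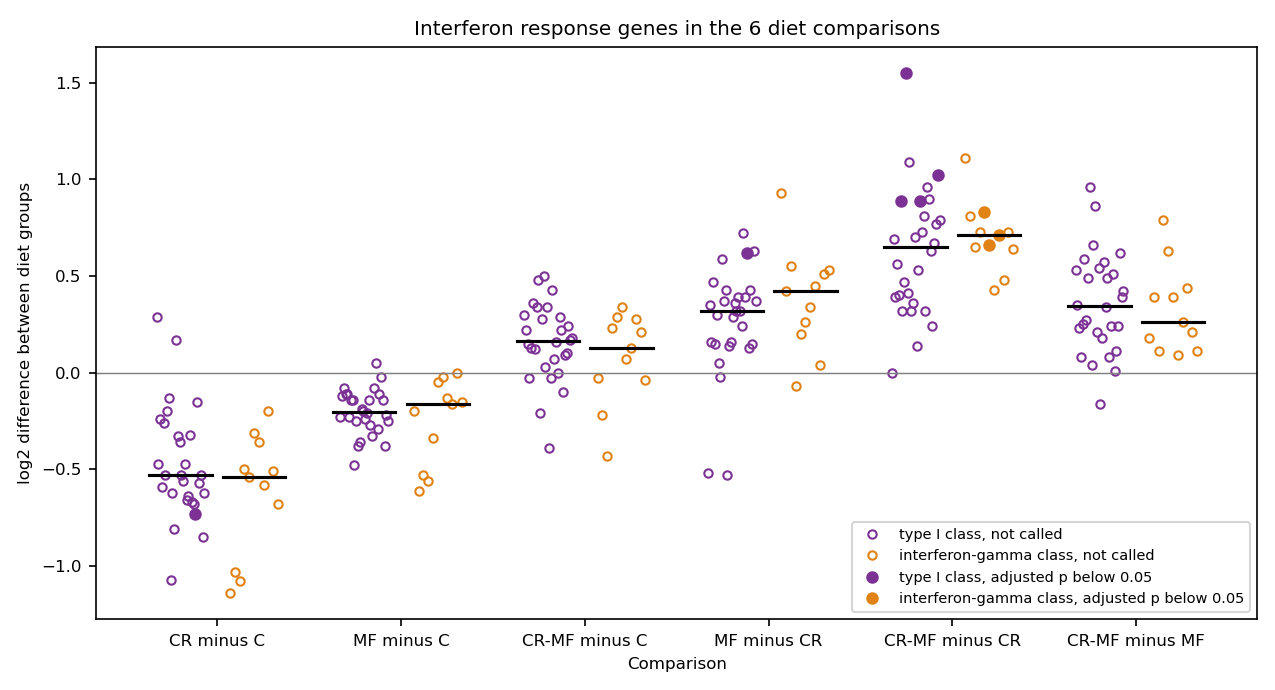
Log2 difference between diet groups in the 6 comparisons (x axis) for each member, type I class in purple and interferon-gamma class in orange, with filled points for an adjusted p below 0.05 and a line at the median of the class. In CR minus C both medians lie near -0.5 (-0.53 and -0.54), and in CR-MF minus CR all points are at or above 0, with medians of 0.65 and 0.71.

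Both classes shared these differences between diets. The median of the type I members and of the interferon-gamma members was -0.53 and -0.54 for CR against C, 0.65 and 0.71 for CR-MF against CR, 0.32 and 0.42 for MF against CR, and 0.34 and 0.26 for CR-MF against MF. Without the members known to answer to both, the medians of CR-MF against CR were 0.70 over 22 type I members and 0.71 over 5 interferon-gamma members. Of the latter, Gbp2, Gbp7 and Irgm1 held the ISRE core, and Iigp1 had no promoter window. Whether Gbp2, Gbp7 and Irgm1 answer to interferon-gamma alone was not tested. The difference of the classes was not tested, since members are not replicates.

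Within a group, in contrast, some mice did not rank alike in the classes. A score was taken for each class and mouse as the mean over the members of the log2 value minus the gene's mean over all mice. In CR-MF the type I score was highest in BC4_1 (0.81) and BC4_9 (0.77), which held the highest CR-MF value for 12 and 13 of the 28 type I members. BC4_11 had a type I score of 0.15 but the highest interferon-gamma score of all mice (0.89), against 0.82 in BC4_1 and 0.33 in BC4_9. BC4_11 stood at 8.58 for Cxcl10 and 9.47 for Gbp2, and BC4_9 at 7.18 and 7.35. For Ifit1 the order was the reverse, with 9.28 in BC4_9 and 7.86 in BC4_11.

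C and MF held such mice too. In C, A4_1 had the highest value for 18 of 28 type I members and 3 of 11 interferon-gamma members, with scores of 0.59 and 0.21. A4_9, which was high in both classes, had the highest C value for 8 of the 28 and 4 of the 11. By the plate codes, each of them was the only C mouse on its plate, and BC4_11 was the only CR-MF mouse on that of A4_1. For these mice, mouse and plate cannot be told apart. In MF, C4_11 had the highest value for 10 of 11 interferon-gamma members and 7 of 28 type I members, with scores of 0.63 and 0.05. In CR, B4_5 was high in both classes, with the highest value for 22 of 28 type I members and 10 of 11 interferon-gamma members. Its scores of 0.17 and -0.09 compare with type I scores between -0.63 and -0.32 in the other CR mice and interferon-gamma scores between -0.66 and -0.32.

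Markers of T and NK cells were high in some of the mice with a high interferon-gamma score and not in others. Of 12 T cell markers 10 were tested (Lck had no cluster listed and Trat1 did not pass the filter), and their score was highest in C4_11 (1.37), BC4_11 (1.24) and A4_9 (0.87) and lowest in A4_1 (-0.63). Of 10 NK cell markers 7 were tested (Klrb1c, Ncr1 and Klre1 did not pass the filter), with the highest scores in BC4_11 (1.31) and C4_11 (0.89) and one of -0.56 in BC4_9. BC4_1, with the second highest interferon-gamma score of all mice (0.82), had T and NK cell scores of -0.04 and 0.05. The score of 8 B and plasma cell markers was highest in C4_11 (2.69) and A4_9 (1.59), and it was -0.09 in BC4_11 and -0.01 in BC4_1. Among the 11 mice with a T cell score above 0, the interferon-gamma score exceeded the type I score in 8, and among the other 16 mice it did so in 4. A4_9 was not among these 8, with a type I score of 0.43 and an interferon-gamma score of 0.26. The members Cxcl9, Cxcl10 and Gbp2 are also expressed by immune cells, and the part of these cells in the interferon-gamma values was not tested.

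**Figure D4:**
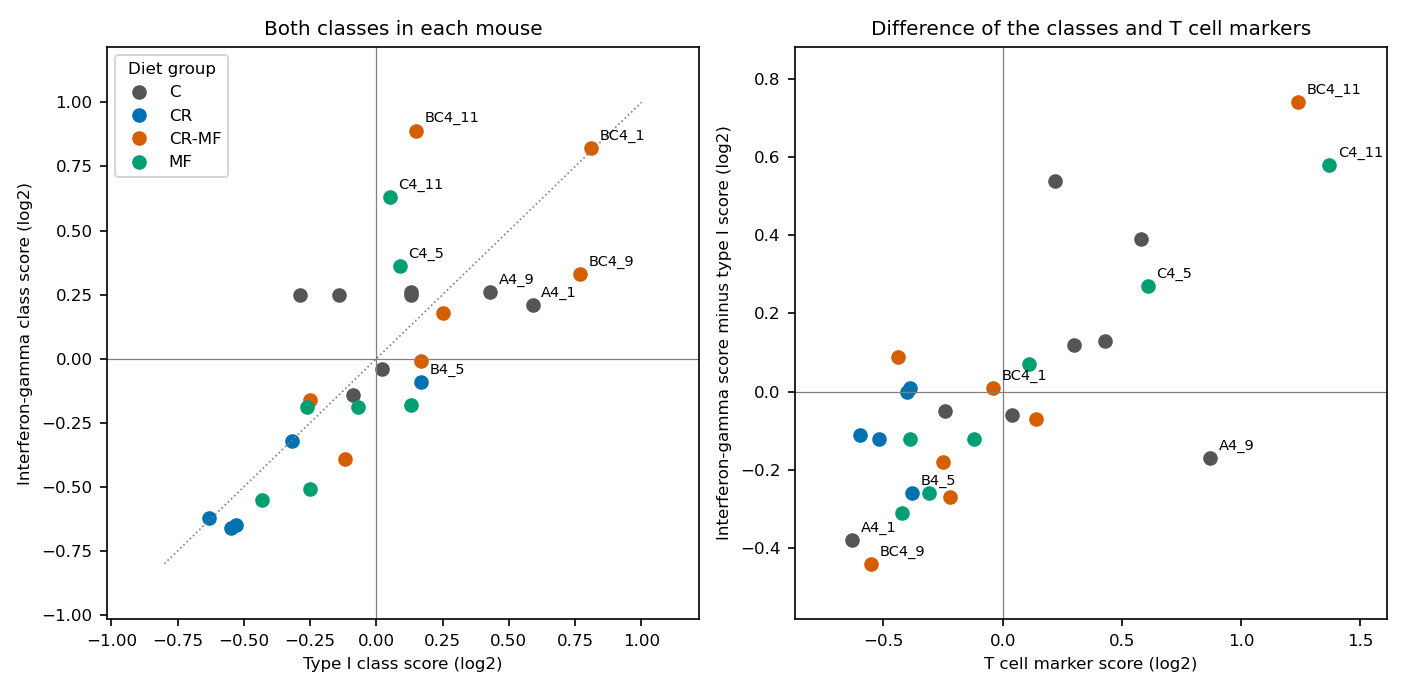
Left, interferon-gamma class score against type I class score of each mouse (both log2, mean over the members minus the gene means), with a dotted line where they are equal. Right, the interferon-gamma score minus the type I score against the T cell marker score (both log2), where BC4_11 and C4_11 lie farthest to the upper right and BC4_9 and A4_1 at the lower left; points are mice, coloured by diet group.

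The T and NK cell scores were below 0 in all CR mice. The T cell score lay between -0.60 and -0.38 in CR, -0.63 and 0.87 in C, -0.55 and 1.24 in CR-MF and -0.42 and 1.37 in MF. The NK cell score lay between -0.41 and -0.26 in CR, -0.36 and 0.64 in C, -0.56 and 1.31 in CR-MF and -0.59 and 0.89 in MF. Of the markers of recruited macrophages and monocytes, 9 of 10 were tested, with scores between -0.61 and -0.48 in CR, -0.39 and 0.96 in C, -0.88 and 0.69 in CR-MF and -0.08 and 0.97 in MF. Trem2 and Ccr2 were the 2 of these 9 called in CR against C (1.57% of all genes). Both fell (limma adjusted p 0.0311 and 0.0326), Trem2 by 1.63. Of the T cell markers, 10 of 10 were lower in CR than in C and 10 of 10 higher in CR-MF than in CR with medians of -0.59 and 0.41. Themis was the 1 called in CR against C (1.57% of all genes), and 0 were called in CR-MF against CR (0.600% of all genes). Without the mouse highest in T cell markers of C, CR-MF and MF (A4_9, BC4_11 and C4_11), a fit chosen after seeing the data, the members called were 0 for CR-MF against CR and 5 for CR against C. The type I median of CR-MF against CR was then 0.62 and the interferon-gamma median 0.65.

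The rest of the pathway was read from lists of other genes. Of the interferons themselves, 9 were listed, 6 had a row and 2 passed the filter, Ifng and Ifnl2. Ifng had medians of 4.08 in C, 4.26 in CR, 4.25 in CR-MF and 4.05 in MF, near the filter limit of 4.32, and its highest value was 5.46 in an MF mouse. Ifnb1 was below the filter, with medians between 3.34 and 3.38 in the 4 groups. Of 9 receptors and kinases tested, only Ifngr2, a chain of the interferon-gamma receptor, was called in any comparison. It fell in CR against C by 0.27 (limma adjusted p 0.0394, with 1.57% of all genes called). It was higher in MF than in CR by 0.34 (limma adjusted p 0.00824, with 5.42% of all genes called). In CR-MF it was higher than in CR by 0.35 (limma adjusted p 0.0163, with 0.600% of all genes called). Ifngr2 ran from 9.50 to 9.83 in CR and from 9.92 to 10.23 in CR-MF, without overlap, against 0.493% of all genes in this direction. The receptor chain Ifnar1 had medians between 8.32 and 8.37 in all groups.

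None of the 14 genes of sensing and induction and none of the 8 negative regulators was called by limma in any of the 6 comparisons. Between CR and C, 7 and 5 of them had an unadjusted p below 0.05, all lower in CR, against 10.5% of all genes lower. Between CR-MF and CR, 12 of the 14 genes of sensing and induction were higher, and the median log2 difference of the 14 was 0.26. At an unadjusted p below 0.05, 3 of them were higher (5.40% of all genes) and 1 was lower (6.90% of all genes). All 8 negative regulators were higher, 2 at an unadjusted p below 0.05, with a median of 0.21.

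Of 48 further interferon-induced genes tested, 0 were called between CR-MF and CR (0.600% of all genes), with a median of 0.30. At an unadjusted p below 0.05, 15 were higher (5.40% of all genes) and 0 lower (6.90% of all genes). Between CR and C, Oas2, a synthetase of the signal that activates the RNase of the antiviral response, fell by 1.00 (limma adjusted p 0.0280). It was the 1 called of the 48, against 1.57% of all genes. At an unadjusted p below 0.05, 19 of the 48 were lower (10.5% of all genes) and 1 higher (9.27% of all genes). The median of the 48 was -0.31. Between MF and CR, Isg20, an exonuclease of viral RNA, was higher by 0.75 (limma adjusted p 0.0287). It and Ifi27, which was lower, were the genes called of the 48, against 5.42% of all genes. The genes of the IFIT, OASL, GBP and IRG families resemble one another in sequence, and whether probes of one also bind another was not tested.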

How the data were processed

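Liver RNA of 27 mice was hybridised by the study to Affymetrix Mouse Gene 1.1 ST arrays. The authors deposited log2 RMA values (background correction, normalization and summary of the probes) for each transcript cluster. The study's methods describe probe sets defined by Entrez gene, while the table used here holds the manufacturer's transcript clusters. Of 35556 clusters, 21218 carry 1 gene symbol in the platform annotation, and these gave 18820 genes. The 13993 genes tested had an intensity over 20 (4.32 on the log2 scale) in 5 or more mice and an interquartile range over 0.1.

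The 4 group means were fitted with limma 3.58.1 in R 4.3.3, with variances moderated along an intensity trend. Standard errors come from that model. P-values were adjusted by the Benjamini-Hochberg method over the 13993 genes and called below 0.05. The fit was tested on simulated data. The number of arrays limits the precision, and each mouse is 1 biological replicate.

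The members and lists were chosen with earlier results of these data known. Values are given in full for members called in any comparison, and the others by role. Alternatives were other normalizations, filters, moderation, array weights, the plate or animal number as a block, 2 groups alone, plate G150 alone, the mean over clusters and leaving out each mouse. Plate and well row were inferred from codes in the array names. For C mouse A4_9 the array title carries a suffix of unstated meaning. Clusters with several symbols were not analysed here.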

Additional observations from a re-analysis of the deposited data

Results flagged for a closer look

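In 39 members and 4 groups, 156 sets of values were looked at for a mouse that stands far from the rest of its group (the gap to the nearest mouse over the range of the group, against Dixon's 95% limit), and 9 were found, where chance gives about 1 in 20. The CR mouse B4_5 gave 4 of them as the highest of its group. For Isg15 it stood at 5.82 with the next CR mouse at 4.75 (0.762 of the range), for Oasl2 at 9.42 and 7.77 (0.816), for Bst2 at 9.68 and 9.06 (0.795) and for Gbp3 at 8.55 and 7.04 (0.814). In MF, C4_1 was highest for Isg15 at 5.42 against 5.05 (0.587), C4_11 was highest for Irf1 at 8.73 against 8.03 (0.609), and C4_9 was lowest for Bst2 at 7.90 against 8.55 (0.684). In C, A4_1 was highest for Bst2 at 9.34 against 8.86 (0.567), and A4_17 was lowest for Gbp7 at 8.14 against 8.38 (0.534). The cause of these values was not tested.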

How the results depend on the processing

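Both class medians kept their direction in all 6 comparisons under the alternatives run for them, except that of the interferon-gamma members for CR-MF against C, which was 0.13 and became -0.03 with the animal number as a block, and none moved by more than 1 SD of the score between mice. The number of members called was less stable. For CR against C it was 1 and became 2 with quantile normalization or the plate as a block, 4 with the stricter filter, 10 with these 2 groups alone, 12 with array weights, 0 on plate G150 alone and 5 without the 3 mice highest in T cell markers (chosen after seeing the data). For CR-MF against CR it was 7 and became 4 with median centring or the plate as a block, 3 without a filter, 0 with these 2 groups alone, 18 with array weights, 1 on plate G150 alone and 0 without those 3 mice. For MF against CR it was 1 and became 2 with median centring and 0 with 2 groups alone or on plate G150 alone. For CR-MF against MF it was 0 and became 4 with median centring, 1 with the stricter filter and 6 with array weights, and for CR-MF against C it was 0 and became 1 on plate G150 alone. For any difference among the 4 groups it was 7 and became 20 with array weights and 1 on plate G150 alone. With 1 mouse left out, the number called lay between 0 and 8 for CR against C, 0 and 15 for CR-MF against CR, 0 and 2 for MF against CR, 0 and 4 for CR-MF against MF and 0 and 11 for the 4 groups. Of 13 alternatives other than leaving out a mouse, Iigp1, Ifit1 and Herc6 were no longer called between CR-MF and CR in 4, Gbp7 in 6, and Irgm1 and Xaf1 in 7, as was Mx2 in 8 of 12. The fits with 2 groups alone or on plate G150 alone use fewer mice; otherwise the cause was not tested.

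The animal numbers are shared between groups but were not taken as pairs, since not every correlation was above 0.1, a rule that cannot exclude pairing. Mice of the same number had correlations of their deviations from the group means between -0.255 and 0.357 (median 0.0942). Of 27 such pairs, 13 were above 0.1. Mice of different numbers had a lower median of -0.0235, with 66 of 244 above 0.1. Whether the numbers pair the mice is not settled by these values. With the animal number as a block, 0 members were called in CR against C, MF against CR, CR-MF against CR and among the 4 groups. That fit also leaves fewer values from which to estimate the spread.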
